A study of Mus musculus with 34 samples.

Results

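The genes described here encode the enzymes that attach isoprenoid lipids to proteins and the enzymes that finish the lipid-modified end. They are the farnesyltransferase and geranylgeranyl transferase I subunits Fnta, Fntb and Pggt1b, the Rab geranylgeranyl transferase subunits Rabggta and Rabggtb with the Rab escort protein Chm, the geranylgeranyl diphosphate synthase Ggps1, and the processing enzymes Rce1, Icmt and Zmpste24. All 10 were chosen by symbol, with earlier results of these data known. All 10 had a probeset with a single gene symbol, among 19938 genes with such a probeset on the array. Each gene was read from its probeset of highest mean over all arrays, and all 10 were tested with no filter on low values.

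The cells were mouse pre-B acute lymphoblastic leukaemia cells of 2 lines, each from a different BCR/ABL transgenic mouse. The genetic background was inbred C57Bl/6J for line 8093 and mixed for Bin-2. Both grew on irradiated mouse embryonic fibroblasts in medium with 10 ng/ml IL-3, which all groups shared, and RNA came from cells in the medium or loosely attached to the feeders. The dose of nilotinib, an inhibitor of the BCR-ABL tyrosine kinase, was 20 nM for 8093 cells but 50 nM for Bin-2 cells. The dose of lonafarnib, a farnesyltransferase inhibitor, was 1 µM for 8093 cells but 0.25 µM for Bin-2 cells. Each line and drug made a course sampled before drug (the start, day 0), during the main cell loss (the midpoint) and after drug-tolerant cells had grown out (the end). The midpoint was day 3, or day 4 for 8093 with lonafarnib, at 5 to 10% viability (20% for 8093 with lonafarnib). The ends were day 20 (8093, nilotinib), day 26 (8093, lonafarnib), day 21 (Bin-2, nilotinib) and day 30 (Bin-2, lonafarnib), at about 90% viability. Every group had 3 arrays from separate plates, except both 8093 ends with 2, which gave 34 arrays in 12 groups. Each line is a single leukaemia, doses and days differed between lines, and no arrays were taken without drug at later times, so drug, time in culture and selection cannot be told apart. Dishes were of 10 cm, but of 15 cm for the midpoint, so dish size cannot be told apart from the midpoint either.

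Prenylation adds a farnesyl or geranylgeranyl chain to a cysteine near the end of a protein and so lets Ras, Rab and lamin proteins bind membranes. FNTA is the shared alpha subunit of farnesyltransferase, where it pairs with FNTB, and of geranylgeranyl transferase I, where it pairs with PGGT1B. Rab proteins are prenylated by a separate enzyme of RABGGTA and RABGGTB, and only when an escort protein such as CHM presents them. Proteins with a CAAX end are then trimmed by RCE1 and methylated by ICMT, while ZMPSTE24 matures prelamin A. The arrays measured transcripts of these genes, not enzyme activity.

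RefSeq promoter windows on GRCm38.p6, from 250 bases before to 50 bases after the annotated start, were found for Fntb, Rabggta, Rabggtb, Ggps1, Rce1, Icmt, Zmpste24 and Chm, which made 8 of the 10. The 250 bases before the start of Fntb (chr12:76837217-76837466, plus strand) and Rabggtb (chr3:153912967-153913216, minus strand) are shown because both genes were lower at both later times of the 8093 nilotinib course. Icmt was too, but its window begins inside the gene, with a start 281 bases downstream of the gene's annotated 5′ end, and is not shown. The starts used for Fntb and Ggps1 lie 67 and 78 bases downstream of their genes' 5′ ends, so the last bases printed for them fall inside those genes as annotated. In Ggps1 these include the marked CCAAT at −55 to −51 from the start used. The 250 bases before the start of Ggps1 (chr13:14063489-14063738, minus strand) are shown because this gene fell and then rose in the 8093 nilotinib course. Capitals mark GC boxes (GGGCGG) in Fntb and Rabggtb, the NRF1 half-site pair (GCGCA and GCGC parted by 1 base) in Rabggtb and CCAAT boxes (CCAAT, or ATTGG on the other strand) in Ggps1.
Fntb: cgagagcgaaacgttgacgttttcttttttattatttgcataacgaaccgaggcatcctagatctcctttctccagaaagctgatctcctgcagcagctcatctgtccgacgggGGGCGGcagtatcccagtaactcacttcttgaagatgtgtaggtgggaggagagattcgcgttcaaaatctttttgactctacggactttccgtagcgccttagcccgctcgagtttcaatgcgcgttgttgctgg
Rabggtb: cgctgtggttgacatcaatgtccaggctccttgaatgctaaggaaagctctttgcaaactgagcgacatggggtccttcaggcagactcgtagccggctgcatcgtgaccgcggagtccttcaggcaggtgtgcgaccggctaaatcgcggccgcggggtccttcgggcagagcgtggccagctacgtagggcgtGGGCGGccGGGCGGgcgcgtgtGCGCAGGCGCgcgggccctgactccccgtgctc
Ggps1: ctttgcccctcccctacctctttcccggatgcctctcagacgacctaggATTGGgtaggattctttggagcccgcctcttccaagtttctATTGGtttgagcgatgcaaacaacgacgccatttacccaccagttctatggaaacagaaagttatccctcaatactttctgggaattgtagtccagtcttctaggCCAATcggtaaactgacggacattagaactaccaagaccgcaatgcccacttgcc
On either strand of the whole windows, GGGCGG was present in 4 of the 8 genes (Fntb, Rabggtb, Icmt and Rce1) and in 35.9% of 27025 promoters. CCAAT was present in 3 of 8 (Ggps1, Zmpste24 and Rce1) and in 38% of promoters. GCGCA and GCGC parted by 1 base was present in Rabggtb and Icmt and in 4.82% of promoters. TGACGTCA and CACGTG were each present in Rce1 alone, against 1.85% and 7.24% of promoters. TATAAA (14.2% of promoters) and the sterol element TCACCCCAC (0.529%) were in none of the 8 windows. No matches overlapped within a window. These are matches of letters, and binding was not measured.

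Marker genes of other cell types moved strongly in some groups. Levels here are the mean log2 signal of a list, and a gene was called where its adjusted p in limma, with Benjamini-Hochberg adjustment over 19938 genes, was below 0.05. In the 8093 nilotinib course the mean of 12 mast cell markers went from 4.01 before drug to 9.48 at the midpoint and then to 11.40, and all 12 were called higher at both later times. The mean of 10 macrophage markers went from 5.08 to 8.93 and 8.95, and that of 10 pre-B markers from 8.64 to 8.58 and 5.4, with 9 of the 10 called lower at the end. The markers of the 2 arrays labelled 8093 nilotinib end therefore went against the pre-B label. In the other courses the pre-B mean stayed between 8.67 and 9.47, while the macrophage mean reached 6.49 (8093, lonafarnib, midpoint), 9.06 (Bin-2, nilotinib, end) and 6.94 (Bin-2, lonafarnib, midpoint). The mast cell mean reached 6.30 at the 8093 lonafarnib midpoint and 7.16 at the Bin-2 nilotinib end. The mean of 10 fibroblast markers, the type of the feeder cells, went from 4.52 to 5.55 at the 8093 nilotinib midpoint (7 of 10 called higher), from 4.55 to 5.23 at the Bin-2 lonafarnib midpoint (5 of 10) and from 4.41 to 4.87 at the Bin-2 nilotinib midpoint (4 of 10). At the other 5 later times 0 or 1 of the 10 was called higher. The interquartile range of all values was 3.03 at the 8093 nilotinib midpoint and 3.16 at the Bin-2 lonafarnib midpoint, against 3.42 to 3.55 in the other 10 groups. The part of these differences in the results below was not tested. In such mixed samples, fewer cells of a type and less RNA per cell cannot be told apart.

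Against the start of their own course, most calls among the prenylation genes were made in 8093 with nilotinib, the course in which most genes of the array were called too. Of 20 gene and time combinations there, 13 were called, 10 lower and 3 higher, against 3 of 20 in 8093 with lonafarnib, 0 of 20 in Bin-2 with nilotinib and 2 of 20 in Bin-2 with lonafarnib. At the 8093 nilotinib midpoint 7 of 10 fell and 0 rose, where 50.1% of all genes were called (27.5% lower), and 4 fell after quantile normalization (Fntb, Rabggta, Rabggtb and Zmpste24). At its end 3 rose and 3 fell, where 44.5% of all genes were called (19.6% higher and 24.9% lower). Of these, Fnta, Ggps1, Icmt and Chm were no longer called without end replicate 1, which left a single array in that group. In 8093 with lonafarnib 1 fell at the midpoint and 2 rose at the end, where 10.8% and 8.71% of all genes were called (6.9% lower at the midpoint and 4.4% higher at the end). On the arrays of 8093 alone these counts were 0 and 1. In Bin-2 with lonafarnib 2 fell at the midpoint and 0 were called at the end, where 16.5% (12% lower) and 8.07% of all genes were called, and at the end 4 of 10 had an unadjusted p below 0.05 (limma). In Bin-2 with nilotinib none of the 10 was called at either time in limma, where 3.47% and 8.89% of all genes were called, and at an unadjusted p below 0.05 the counts were 2 and 1 of 10. Between that midpoint and end 0 of 10 were called in limma, where 1.41% of all genes were called, and 0 of 10 had an unadjusted p below 0.05. The median change of the 10 genes was −0.48 at the 8093 nilotinib midpoint (0.03 for all genes) and −0.15 at its end (−0.15 for all genes). It lay between −0.25 and 0.17 in the other 6 comparisons, where that of all genes lay between −0.03 and 0.01. Midpoint and end were compared with the same start arrays.

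**Figure D1:**
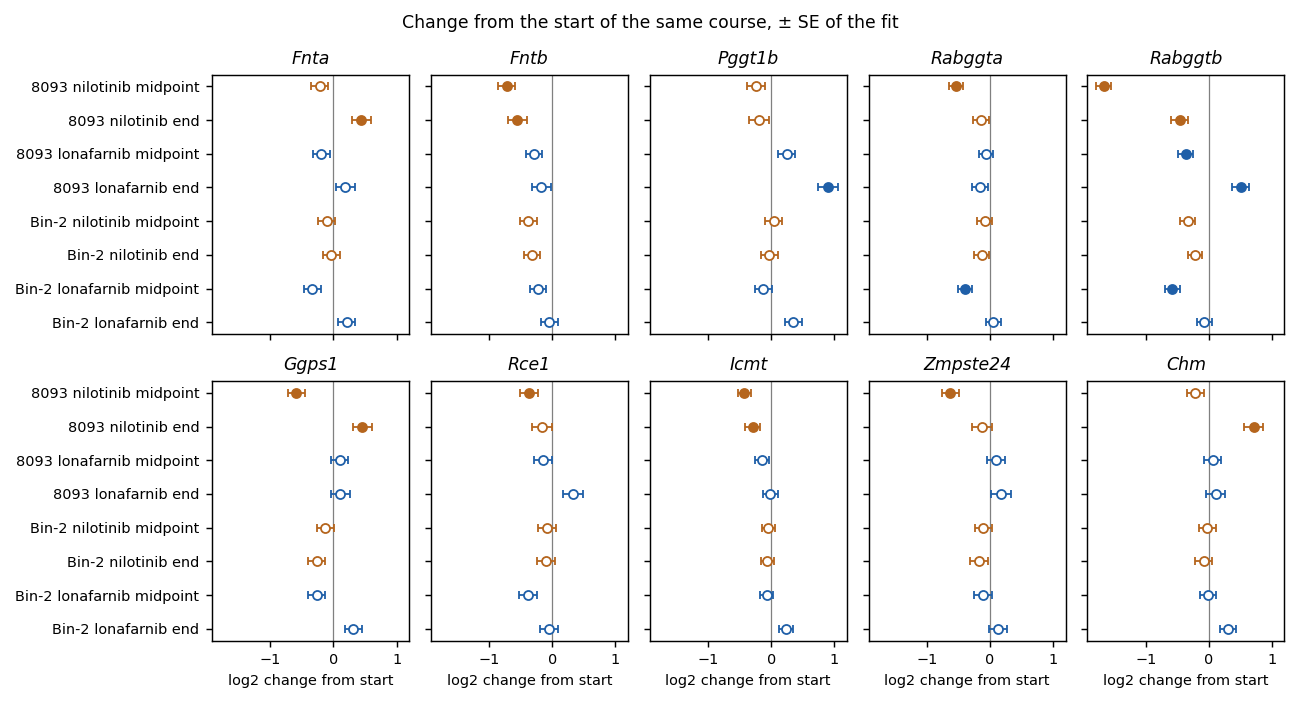
Log2 change from the start of the same course (x axis, bars ± SE of the fit) of each of the 10 genes in 8 comparisons (y axis), nilotinib in brown and lonafarnib in blue, with filled points for called changes. The largest change was that of Rabggtb at the 8093 nilotinib midpoint (−1.66), and the largest rise was that of Pggt1b at the 8093 lonafarnib end (0.90).

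Fnta, the alpha subunit shared by farnesyltransferase and geranylgeranyl transferase I, was called in a single comparison with a start. In the 8093 nilotinib course its log2 signal was 7.12, 7.04 and 7.10 at the start, 6.90, 6.76 and 6.95 at the midpoint, and 7.60 and 7.45 at the end. Both end arrays were above every other array of the 34 for this gene. The end exceeded the start by 0.44 ± 0.15 (SE, adjusted p = 0.0184, limma), 1.36-fold. Without end replicate 1 the rise was 0.36, with a single array left in that group. The macrophage marker mean was 9.76 in replicate 1 and 8.15 in replicate 2, and its part was not tested. In 8093 with lonafarnib the values were 7.10, 6.79 and 7.06, then 6.96, 6.77 and 6.64, then 7.15 and 7.19. The arrays overlapped between start and midpoint, and the changes of −0.20 ± 0.14 (adjusted p = 0.457, limma) and 0.19 ± 0.15 (adjusted p = 0.548) were not called.

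In Bin-2, Fnta read 6.95, 6.92 and 7.23 at the nilotinib start, 7.0, 6.76 and 7.03 at the midpoint and 7.23, 7.0 and 6.77 at the end. The 3 times overlapped throughout. With lonafarnib it read 6.97, 6.84 and 6.71, then 6.75, 6.17 and 6.60, then 6.94, 7.15 and 7.06. The midpoint was the lowest of the 12 group means, 6.5 ± 0.30 (SD, n = 3), and its difference from the start was −0.33 ± 0.14 (adjusted p = 0.092, limma). Against all 6 Bin-2 start arrays, a comparison added after seeing the data, Fnta was lower at this midpoint by −0.43 ± 0.12 (adjusted p = 0.00656). Without midpoint replicate 1, the highest array of this group, Fnta was lower than its own start by −0.46. Leaving out the highest array had to deepen the fall, so this fit adds no support. The spread of values was narrow at this midpoint (interquartile range 3.16), and its part was not tested. From midpoint to end Fnta rose by 0.55 ± 0.14 (adjusted p = 0.0028, limma), with no overlap of arrays. Among neighbours in the order of the 12 group means, arrays separated only below the highest (7.53 ± 0.11, 8093 nilotinib end, n = 2) and the second highest (7.17 ± 0.03, 8093 lonafarnib end, n = 2).

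Fntb, the beta subunit that makes the enzyme a farnesyltransferase, was lower at both later times of the 8093 nilotinib course. It read 6.29, 6.20 and 6.24 at the start, 5.47, 5.42 and 5.66 at the midpoint, and 5.70 and 5.67 at the end. No later array reached the start arrays. The fall was by 0.73 ± 0.13 at the midpoint (adjusted p = 2.53e-05, limma), to 0.605 of the starting signal, and by 0.55 ± 0.14 at the end (adjusted p = 0.00207). In 8093 with lonafarnib the values were 6.39, 6.14 and 6.43, then 6.15, 5.91 and 6.02, then 6.28 and 6.02. The changes of −0.29 ± 0.13 (95% interval −0.56 to −0.03, adjusted p = 0.162) and −0.17 ± 0.14 (−0.47 to 0.12, adjusted p = 0.569) were not called.

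In Bin-2 with nilotinib, Fntb read 6.52, 6.57 and 6.45 at the start, 6.08, 6.13 and 6.19 at the midpoint and 6.19, 6.25 and 6.13 at the end. All later arrays lay below all start arrays. The changes of −0.38 ± 0.13 (adjusted p = 0.111, limma) and −0.32 ± 0.13 (adjusted p = 0.128) were not called, and they passed the threshold (adjusted p = 0.0373 and 0.0496) in a fit, added after seeing the data, without the arrays of the 8093 nilotinib and Bin-2 lonafarnib midpoints. With lonafarnib the values were 6.15, 6.58 and 6.37, then 6.51, 6.09 and 5.81, then 6.41, 6.24 and 6.32. These overlapped, and the changes of −0.23 ± 0.13 (95% interval −0.49 to 0.03) and −0.05 ± 0.13 (−0.31 to 0.22) were not called. Without midpoint replicate 1, the highest array of that midpoint, the first was −0.42, a fall that this omission had to deepen. The 12 group means ran from 5.52 ± 0.13 (8093 nilotinib midpoint) and 5.69 ± 0.02 (its end) to 6.51 ± 0.06 (Bin-2 nilotinib start), and arrays separated only between the lowest 3.

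Pggt1b, the beta subunit of geranylgeranyl transferase I, rose in 8093 with lonafarnib. It read 8.28, 8.46 and 8.24 at the start, 8.63, 8.50 and 8.58 at the midpoint, and 9.08 and 9.37 at the end. The groups did not overlap at any step. The end exceeded the start by 0.90 ± 0.16 (adjusted p = 0.00024, limma), 1.86-fold, and the midpoint by 0.65 ± 0.16 (adjusted p = 0.00777), where 6.26% of all genes were called (3.95% higher). Without end replicate 2 the second of these was 0.51 (adjusted p = 0.202). The lonafarnib start arrays were themselves low. The 8093 nilotinib start read 8.70, 9.05 and 9.01, higher in each array than the lonafarnib start, with a difference of −0.59 ± 0.14 (adjusted p = 0.0875), where 0 genes of the array were called and 2350 had an unadjusted p below 0.05. Without nilotinib start replicate 1, the array of that start nearest to the lonafarnib start, the difference was −0.70. This omission had to widen it. The difference between the starts was called (adjusted p = 0.0474, limma) in a fit, added after seeing the data, without the later 8093 nilotinib arrays. Against all 6 start arrays of 8093, a comparison also added after seeing the data, the lonafarnib end was higher by 0.60 ± 0.14 (adjusted p = 0.00441).

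In 8093 with nilotinib Pggt1b read 8.97, 8.54 and 8.52 at the midpoint and 8.94 and 8.51 at the end, overlapping the start. The midpoint change was −0.24 ± 0.14 (adjusted p = 0.148, limma). Without midpoint replicate 1, the highest array of that midpoint, the change was −0.39, which this omission had to deepen. In Bin-2 it read 9.07, 9.10 and 9.25, then 9.28, 9.11 and 9.14, then 8.92, 9.14 and 9.27 with nilotinib, which overlapped. With lonafarnib it read 8.87, 9.29 and 9.21, then 9.06, 8.81 and 9.13, then 9.46, 9.48 and 9.50. The 3 end arrays were above all other arrays of the series for this gene. The difference from the start was 0.35 ± 0.14 (95% interval 0.07 to 0.64, adjusted p = 0.134), not called, and that from the midpoint was 0.48 ± 0.14 (adjusted p = 0.00982), where 29.7% of all genes were called. Without midpoint replicate 2 the second was 0.38 (adjusted p = 0.0734).

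**Figure D2:**
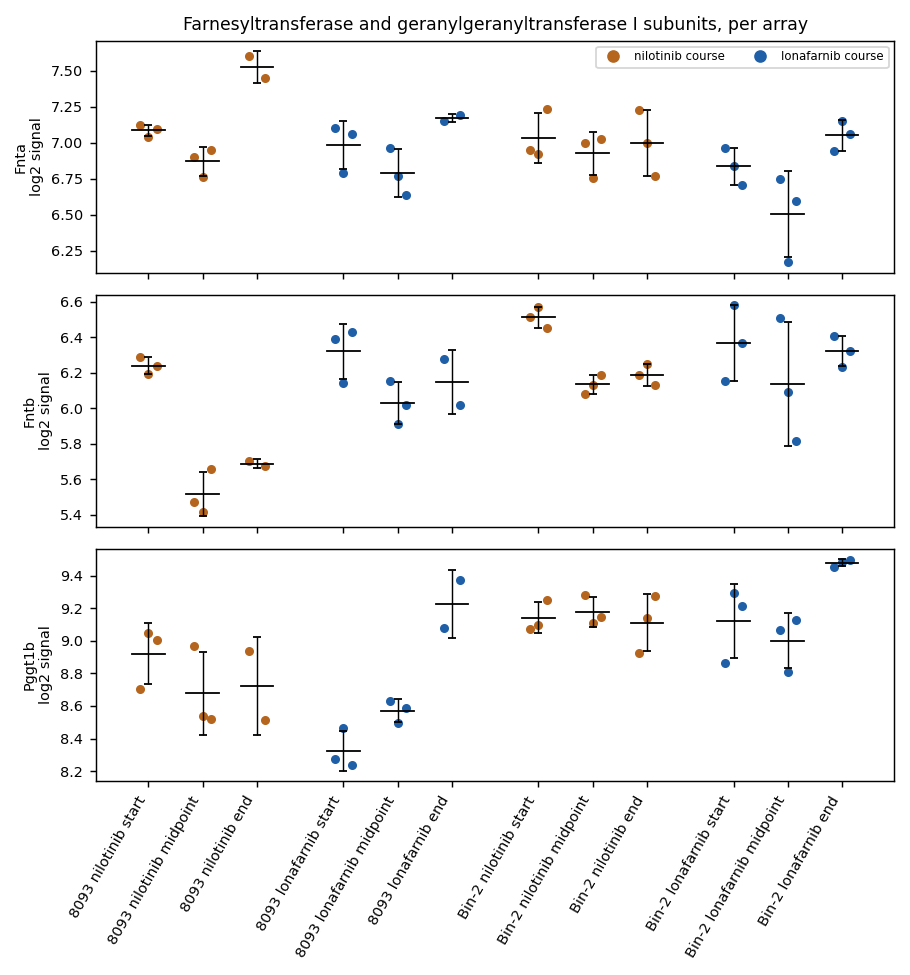
Log2 signal (y axes) of Fnta, Fntb and Pggt1b in each array of the 12 groups (x axis), with points for arrays, horizontal lines for group means and bars for ± SD. Fnta is highest at the 8093 nilotinib end (7.60 and 7.45), Fntb is lowest at the 8093 nilotinib midpoint (5.42 to 5.66), and Pggt1b runs from 8.24 to 8.46 at the 8093 lonafarnib start to 9.46 to 9.50 at the Bin-2 lonafarnib end.

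Rabggtb, the beta subunit of the Rab geranylgeranyl transferase, moved most. In the 8093 nilotinib course it read 9.68, 9.81 and 9.74 at the start, 8.30, 8.01 and 7.93 at the midpoint, and 9.29 and 9.27 at the end. The midpoint arrays were the lowest of the series for this gene, with the next array at 9.09. It fell by 1.66 ± 0.12 (adjusted p = 2.19e-12, limma) to 0.315 of the starting signal, and was still lower at the end by −0.46 ± 0.13 (adjusted p = 0.00441). From midpoint to end it rose by 1.20 ± 0.13, and 6 of 10 genes rose (Fnta, Rabggta, Rabggtb, Ggps1, Zmpste24 and Chm), where 54.5% of all genes were called (26.7% higher). After quantile normalization the midpoint change was −1.36 ± 0.11 (adjusted p = 6.23e-11). In 8093 with lonafarnib it read 9.70, 9.78 and 9.48, then 9.50, 9.09 and 9.28, then 10.13 and 10.18. The midpoint arrays overlapped the start and the end arrays were above both. The midpoint change of −0.37 ± 0.12 (adjusted p = 0.0411) was not called after quantile normalization, on the arrays of 8093 alone, or without start replicate 1 or 2 or midpoint replicate 2 or 3 (adjusted p up to 0.242). The end exceeded the start by 0.50 ± 0.13 (adjusted p = 0.0129), which was not called without start replicate 3 or either end replicate (adjusted p up to 0.134), and the midpoint by 0.87 ± 0.13 (adjusted p = 5.08e-05).

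In Bin-2 with lonafarnib Rabggtb read 9.84, 10.07 and 10.14, then 9.49, 9.28 and 9.54, then 9.91, 10.00 and 9.91. The midpoint lay below both other times. It fell by 0.58 ± 0.12 at the midpoint (adjusted p = 0.00127, limma), and rose by 0.50 ± 0.12 from there to the end (adjusted p = 0.00162). With nilotinib it read 10.02, 10.08 and 10.04, then 9.68, 9.72 and 9.73, then 9.63, 9.83 and 10.03. The midpoint arrays were all below the start arrays, by −0.34 ± 0.12 (adjusted p = 0.123), and the end difference was −0.22 ± 0.12 (adjusted p = 0.3).

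Rabggta, the alpha subunit of the same enzyme, fell at the 8093 nilotinib and Bin-2 lonafarnib midpoints, as did Rabggtb. At these midpoints the spread of values was narrow and the fibroblast marker means were highest, and their part was not tested. In the 8093 nilotinib course it read 7.54, 7.47 and 7.63 at the start, 7.24, 6.84 and 6.96 at the midpoint, and 7.24 and 7.57 at the end. The fall was by 0.54 ± 0.11 (adjusted p = 0.00026, limma), or −0.32 ± 0.11 after quantile normalization (adjusted p = 0.0257). The later rise of 0.39 ± 0.13 was not called without midpoint replicate 2 (adjusted p = 0.0637) or end replicate 2 (adjusted p = 0.227). In Bin-2 with lonafarnib it read 7.42, 7.57 and 7.37, then 7.08, 7.06 and 7.03, then 7.45, 7.48 and 7.59. The midpoint arrays were below all others of that course, lower by −0.40 ± 0.11 than the start (adjusted p = 0.0168). That fall was not called without start replicate 2 (adjusted p = 0.0832) or after quantile normalization (−0.24, adjusted p = 0.18). No change of Rabggta was called in the other courses, where its array values lay between 7.18 and 7.63.

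Chm, the escort protein that presents Rab proteins to the enzyme, rose at the 8093 nilotinib end. It read 7.99, 7.97 and 8.05 at the start, 8.06, 7.80 and 7.51 at the midpoint, and 9.03 and 8.39 at the end. The end arrays lay above the start arrays but apart from each other, with the higher value in replicate 1. The rise was 0.71 ± 0.15 (adjusted p = 0.000158, limma), or 0.39 (adjusted p = 0.0557) without end replicate 1. At the Bin-2 lonafarnib end it read 8.55, 8.36 and 8.49 against 8.08, 8.25 and 8.15 at the start. The arrays did not overlap, and the difference of 0.30 ± 0.13 (adjusted p = 0.182, limma) was not called. It passed the threshold in the fit, added after seeing the data, without the later 8093 nilotinib arrays (adjusted p = 0.0329).

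Ggps1, which makes the geranylgeranyl diphosphate that geranylgeranyl transferase I and the Rab enzyme use, fell and then rose in 8093 with nilotinib. It read 8.53, 8.58 and 8.61 at the start, 8.23, 7.94 and 7.79 at the midpoint, and 9.28 and 8.79 at the end. The 3 groups did not overlap. It fell by 0.59 ± 0.13 (adjusted p = 0.000548, limma), which was not called after quantile normalization (−0.30, adjusted p = 0.0534). At the end it was 0.46 ± 0.15 above the start (adjusted p = 0.0131), and 0.21 (adjusted p = 0.39) without end replicate 1. In Bin-2 with lonafarnib it read 8.25, 8.31 and 8.49, then 8.25, 7.77 and 8.24, then 8.73, 8.67 and 8.59. The end lay above both other times, by 0.58 ± 0.13 over the midpoint (adjusted p = 0.00151) and 0.32 ± 0.13 over the start (adjusted p = 0.176).

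**Figure D3:**
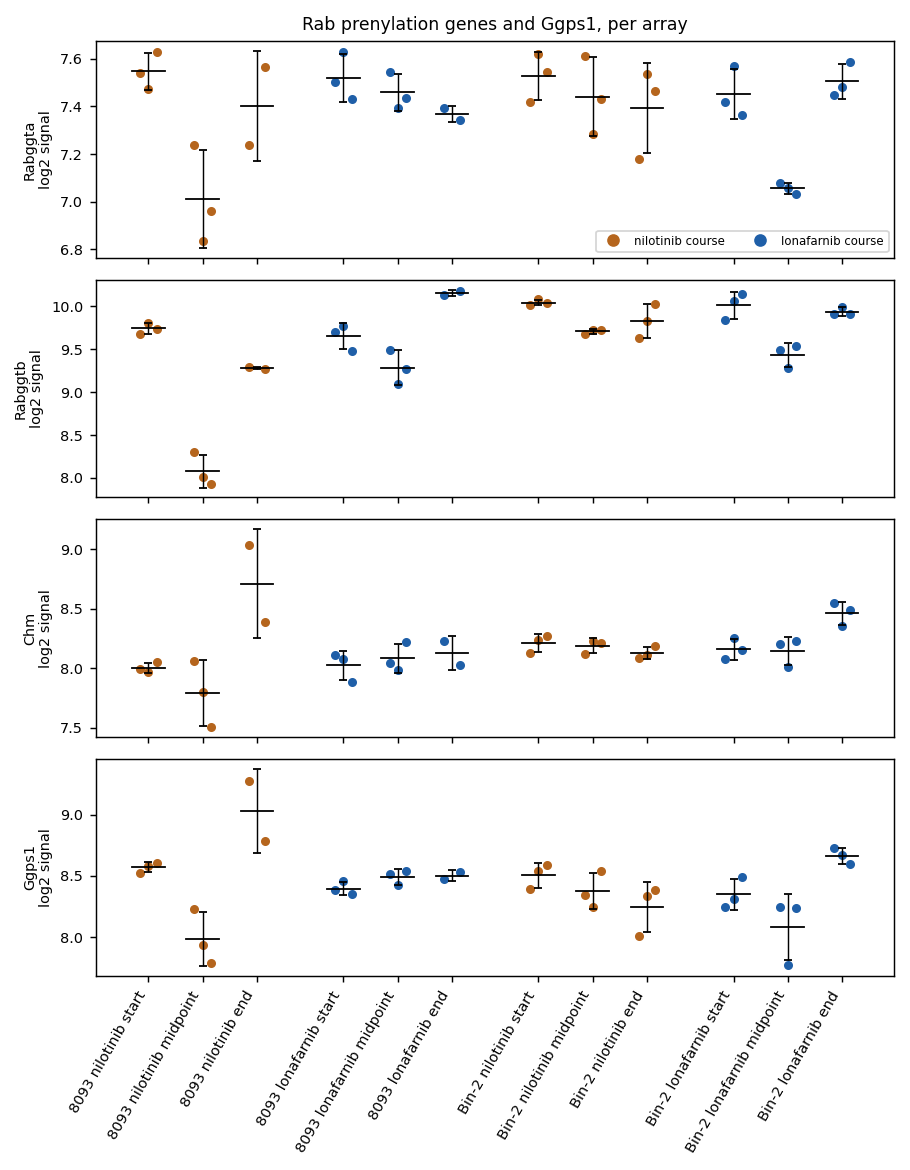
Log2 signal (y axes) of Rabggta, Rabggtb, Chm and Ggps1 in each array of the 12 groups (x axis), with points for arrays, horizontal lines for group means and bars for ± SD. Rabggtb is lowest at the 8093 nilotinib midpoint (7.93 to 8.30), while Chm (9.03 and 8.39) and Ggps1 (9.28 and 8.79) have their highest means at the 8093 nilotinib end.

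The 3 processing enzymes fell at the 8093 nilotinib midpoint and were not called against the start in the lonafarnib courses or in Bin-2. Zmpste24, the prelamin A protease, read 9.73, 9.72 and 9.79 at that start and 9.17, 9.44 and 8.74 at the midpoint. The fall was by 0.63 ± 0.14 (adjusted p = 0.000371, limma), and the end, at 9.61 and 9.64, was 0.51 ± 0.15 above the midpoint (adjusted p = 0.0073; 0.0777 without midpoint replicate 3). A second probeset of Zmpste24, with a lower signal, read 6.11 ± 0.14 at the start and 6.16 ± 0.10 at the midpoint (SD, n = 3), so the 2 probesets did not move together. With the mean of probesets 7 of the prenylation genes were still called lower at that midpoint, while 5 in place of 6 were called higher from there to the end. Icmt, the methyltransferase, read 7.35, 7.35 and 7.39 at the start, 6.88, 7.10 and 6.84 at the midpoint, and 6.91 and 7.23 at the end. Both later times were below every start array, by −0.42 ± 0.11 (adjusted p = 0.00152) and −0.29 ± 0.12 (adjusted p = 0.0455). The midpoint fall was not called after quantile normalization (−0.20, adjusted p = 0.13), and the end fall was lost in 12 of 34 fits that each left out 1 array, being −0.13 without end replicate 1 (adjusted p = 0.521). Rce1, the CAAX protease, read 7.32, 7.22 and 7.30 at the start and 6.78, 7.29 and 6.65 at the midpoint. Its midpoint replicate 2 lay within the start arrays. The change of −0.37 ± 0.14 (adjusted p = 0.0306) was not called after quantile normalization (−0.17, adjusted p = 0.417) or without start replicate 1 or 3 or midpoint replicate 1 or 3 (adjusted p up to 0.199).

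In the lonafarnib courses Rce1 had its highest values at the 8093 lonafarnib end, 7.75 and 7.80, against 7.32, 7.49 and 7.51 at the start. The difference of 0.33 ± 0.16 (adjusted p = 0.231, limma) was not called. It passed the threshold in the fit, added after seeing the data, without the later 8093 nilotinib arrays (adjusted p = 0.0475). At the Bin-2 lonafarnib midpoint Rce1 read 6.85, 7.11 and 6.76 against 7.39, 7.37 and 7.09 at the start, a difference of −0.38 ± 0.14 (adjusted p = 0.066). It was called in that same fit (adjusted p = 0.00714), and on Bin-2 arrays alone (adjusted p = 0.0209). After quantile normalization 1 of the 10 genes was called at this midpoint, in place of 2. Icmt rose by 0.31 ± 0.11 from midpoint to end in Bin-2 with lonafarnib (adjusted p = 0.0291), and this was lost without midpoint replicate 2 or 3 or end replicate 2 or 3 (adjusted p up to 0.15). In all, 6 of 10 genes rose between those times (Fnta, Pggt1b, Rabggta, Rabggtb, Ggps1 and Icmt), where 19.8% of all genes were called higher, and 3 (Fnta, Rabggtb and Ggps1) after quantile normalization.

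Before drug the 2 lines differed in Pggt1b and Rabggtb. Over 6 start arrays in each line, Pggt1b was higher in Bin-2 by 0.51 ± 0.10 (adjusted p = 0.0002, limma) and Rabggtb by 0.33 ± 0.08 (adjusted p = 0.00331), 2 of 10 genes where 20.1% of all genes were called (9.47% higher). The Rabggtb arrays of the lines did not overlap, and those of Pggt1b did, through its higher values in the 8093 nilotinib start. Between the 2 start groups of Bin-2, 0 of 10 genes and 0 of all genes were called, and 1085 genes had an unadjusted p below 0.05. The 8 other prenylation genes differed between lines by −0.10 to 0.17, not called.

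The changes with the 2 drugs differed for some of the genes in 8093. At the midpoint the change with lonafarnib exceeded that with nilotinib for Rabggtb by 1.30 ± 0.17 (adjusted p = 1.48e-06, limma), Zmpste24 by 0.72 ± 0.20, Ggps1 by 0.68 ± 0.19 and Rabggta by 0.47 ± 0.16, 4 of 10 genes where 26.8% of all genes were called (17.6% higher). At the end 3 of 10 differed, where 33.2% of all genes were called (17.4% higher and 15.7% lower). Pggt1b was higher with lonafarnib by 1.10 ± 0.22 and Rabggtb by 0.97 ± 0.19, while Chm was lower by −0.60 ± 0.21 (adjusted p = 0.0232, limma). Without nilotinib end replicate 1, which left a single array in that group, the Chm difference was −0.28. With pooled starts the start cancels between drugs, and what is left is the difference in level between the ends. For Pggt1b this was 0.50 ± 0.17 (adjusted p = 0.0195, limma). In Bin-2 the changes with the 2 drugs differed for 0 of 10 genes at either later time in limma, where 1.48% and 9.51% of all genes were called and 0 and 2 of the 10 had an unadjusted p below 0.05. Doses, days and midpoint viability differed between the courses of 8093.

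Between lines, the nilotinib midpoint change was higher in Bin-2 than in 8093 for Rabggtb by 1.33 ± 0.17 (adjusted p = 7.79e-07, limma), Zmpste24 by 0.52 ± 0.20 and Rabggta by 0.45 ± 0.16, 3 of 10 genes where 26% of all genes were called (18% higher). Without 8093 midpoint replicate 3 the Zmpste24 difference was 0.33 (adjusted p = 0.2, limma). Without replicate 2 the Rabggta difference was 0.36 (adjusted p = 0.118). Both were also lost in other fits that left out 1 array. With the mean of probesets the count was 2 in place of 3, and Zmpste24 had 2 probesets. At the nilotinib end Chm (−0.79 ± 0.20) and Ggps1 (−0.72 ± 0.20) had lower changes in Bin-2 than in 8093, 2 of 10 genes where 30.6% of all genes were called (15% lower). Neither was called without 8093 nilotinib end replicate 1 (adjusted p = 0.072 and 0.11). The lonafarnib changes of the lines differed for 0 of 10 genes at either later time in limma, where 4.2% and 4.61% of all genes were called and 1 and 2 of the 10 had an unadjusted p below 0.05. The nearest was Rabggtb at the end, lower in Bin-2 by −0.58 ± 0.18 (adjusted p = 0.0551).

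Across the 12 group means, the farnesyltransferase subunits did not follow each other, with a Pearson r of −0.19 between Fnta and Fntb (12 groups). Fntb ran with Icmt (r = 0.87) and Rabggtb (r = 0.86), and Fnta with Ggps1 (r = 0.81). Among all genes, those most like Fnta were Fkbpl (r = 0.96), Rab11a (0.95) and Rab12 (0.94), with 343 genes at 0.8 or more. Those most like Fntb were Nop10, Cenpm and Nfatc2ip (each 0.97), with 1480 genes at 0.8 or more. The groups share arrays, normalization and 4 courses, so these are descriptions without a test.

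Genes that supply the isoprenoid precursors were called lower in several courses, most of them in Bin-2 and in 8093 with nilotinib. Of 8 listed mevalonate pathway genes, 6 had a single-symbol probeset. In Bin-2 with lonafarnib all 6 fell at the midpoint, where 12% of all genes were called lower, with Fdps (farnesyl diphosphate synthase) at −0.86 ± 0.12, Hmgcs1 (HMG-CoA synthase) at −0.83 ± 0.13 and Pmvk (phosphomevalonate kinase) at −0.73 ± 0.15. At the end 0 of the 6 were called, where 8.07% of all genes were. In Bin-2 with nilotinib 3 fell at the midpoint and 4 at the end, where 1.6% and 3.94% of all genes were called lower, with Idi1 (isopentenyl diphosphate isomerase) at −0.91 ± 0.15, Hmgcs1 at −0.90 ± 0.13 and Fdps at −0.61 ± 0.12 at the end. In 8093 with nilotinib 4 fell at the midpoint, where 27.5% of all genes were called lower, with Idi1 at −0.80 ± 0.15. At the end Idi1 rose by 0.74 ± 0.16 while Fdps (−0.66 ± 0.14) and Pmvk (−0.65 ± 0.17) fell. There 24.9% of all genes were called lower and 19.6% higher. In 8093 with lonafarnib Fdps alone fell at the midpoint (−0.41 ± 0.12), where 6.9% of all genes were called lower. At that end 0 of the 6 were called, where 8.71% of all genes were. The list's median change was −0.68 at the Bin-2 lonafarnib midpoint, −0.48 and −0.53 in Bin-2 with nilotinib and −0.44 at the 8093 nilotinib midpoint. Before drug, Hmgcs1 was higher in Bin-2 than in 8093 by 0.93 ± 0.09, and 4 of the 6 were higher, where 9.47% of all genes were called higher.

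Of other enzymes that use isoprenoid diphosphates, 7 of 9 listed were measured. The squalene synthase gene Fdft1 fell in both Bin-2 courses, by −0.58 ± 0.14 and −0.94 ± 0.14 with nilotinib and by −0.89 ± 0.14 at the lonafarnib midpoint. In 8093 with nilotinib 6 of 7 fell at the midpoint and 5 at the end, where 27.5% and 24.9% of all genes were called lower, among them Coq2 (ubiquinone synthesis; −0.76 ± 0.12 and −0.94 ± 0.13), Cox10 (haem A synthesis; −0.70 ± 0.11 at the end) and Pdss2 (−0.64 ± 0.13 and −0.51 ± 0.15). At the 8093 lonafarnib end Ptar1, a gene related to the transferase alpha subunits, rose by 0.56 ± 0.13 and Cox10 fell by 0.39 ± 0.11. Of 6 carriers and breakdown genes measured, the second escort gene Chml fell at both later times in 8093 with nilotinib (−0.49 ± 0.12 and −0.55 ± 0.14) and in Bin-2 with lonafarnib (−0.53 ± 0.12 and −0.50 ± 0.12). In Bin-2 with lonafarnib 12% and 3.41% of all genes were called lower at these times. Pde6d, a carrier of prenylated proteins, rose by 0.60 ± 0.14 at the 8093 nilotinib end, where 3 of the 6 and 19.6% of all genes rose, Arhgdib (0.59 ± 0.15) and Gdi2 (0.30 ± 0.12) among them. Rap1gds1 rose by 0.80 ± 0.24 at the 8093 lonafarnib end, and Arhgdib (−0.45 ± 0.14) and Pde6d (−0.39 ± 0.13) fell at the midpoint.

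The genes of protein substrates moved in both directions in 8093 with nilotinib. Of 17 measured genes for farnesylated proteins, 11 fell and 4 rose at the end, where 24.9% of all genes were called lower and 19.6% higher. At the midpoint 11 fell and 1 rose, where 27.5% of all genes were called lower and 22.6% higher. The lamin genes moved in opposite directions at the end, with Lmnb1 at −1.89 ± 0.14, Lmnb2 at −1.0 ± 0.14 and Lmna at 1.33 ± 0.23. Ptp4a3, a phosphatase gene, fell by 1.19 ± 0.11 at the end. Of 19 Rab genes, 15 rose and 0 fell at the end, led by Rab18 (1.70 ± 0.19), Rab5b (1.67 ± 0.13) and Rab10 (0.99 ± 0.14), where 19.6% of all genes were called higher. At the midpoint 2 of the 19 rose and 6 fell, where 22.6% and 27.5% of all genes did. The median change of the Rab list was −0.17 at the midpoint and 0.64 at the end. These are the groups in which the mast cell mean was highest, and its part was not tested.

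Some substrate genes were also called in the other courses. In 8093 with lonafarnib, Ptp4a3 (0.90 ± 0.11) rose at the end, and Cenpe (−0.58 ± 0.12), Rheb (−0.48 ± 0.15) and Lmnb1 (−0.40 ± 0.13) fell at the midpoint while Ptp4a3 rose (0.60 ± 0.10). Of the 19 Rab genes Rab27a fell at the end (−0.61 ± 0.14) and Rab11a at the midpoint (−0.32 ± 0.10). At these times 4.31% and 6.9% of all genes were called lower. In Bin-2 with lonafarnib, Cenpf rose at the midpoint (0.47 ± 0.13), and at the end Pex19, a peroxisome import gene, rose (0.74 ± 0.13) and Rasd1 fell (−0.51 ± 0.15). Of the 19 Rab genes 4 fell at the Bin-2 midpoint, where 12% of all genes were called lower. Lowest were Rab9 (−0.63 ± 0.13), Rab11a (−0.46 ± 0.10) and Rab11b (−0.35 ± 0.09). Rab5b (0.56 ± 0.12) and Rab22a (0.42 ± 0.13) rose at the end, where 4.66% of all genes were called higher. In Bin-2 with nilotinib Lmna (1.49 ± 0.20) and Rab5b (0.40 ± 0.12) rose at the end, where 4.95% of all genes were called higher. The macrophage mean was also higher at that time.

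**Figure D4:**
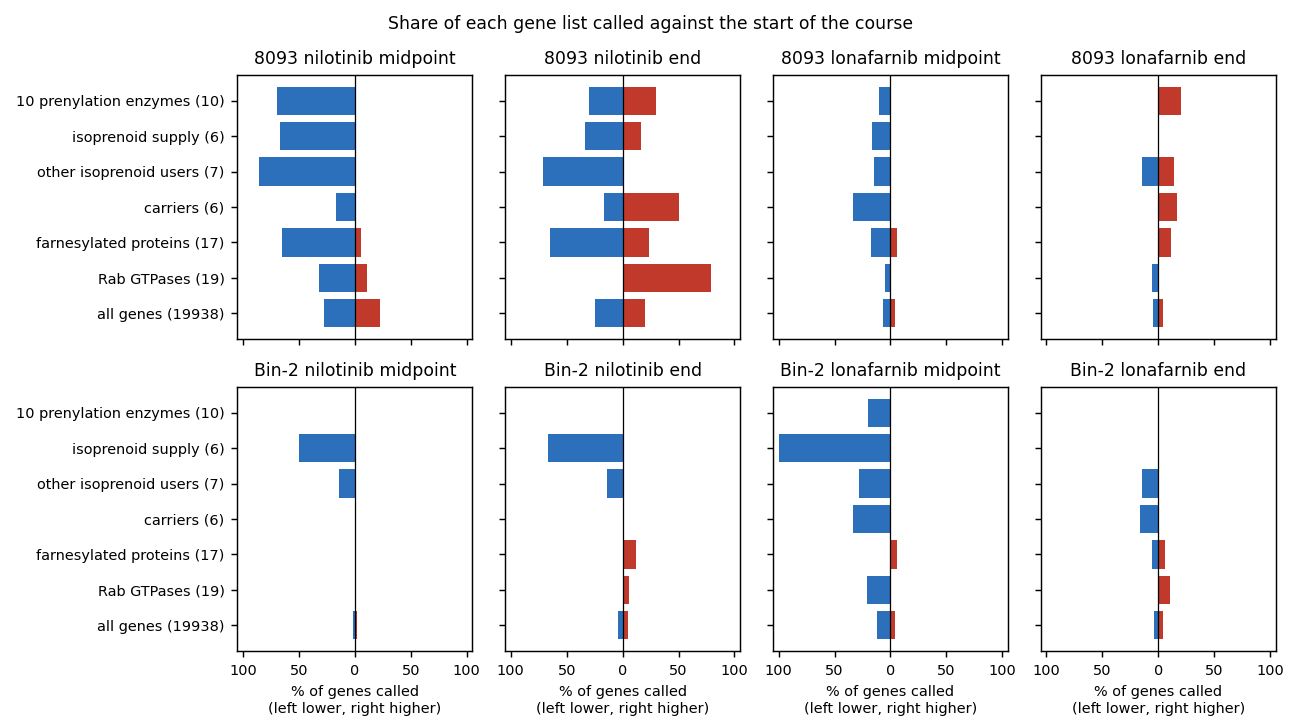
Share of genes called (x axis, percent, lower to the left and higher to the right) in each of 6 gene lists and among all genes (y axis, number measured in brackets), in the 8 comparisons with the start. At the 8093 nilotinib end 15 of 19 Rab genes were higher, at the Bin-2 lonafarnib midpoint all 6 isoprenoid supply genes were lower, and the 10 prenylation enzymes had 7 lower at the 8093 nilotinib midpoint.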

How the data were processed

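Mouse pre-B leukaemia cells were profiled on 34 Affymetrix Mouse Gene 1.0 ST arrays, with total RNA by Trizol, per the labels. The deposited values were log2 probeset signals (1.02 to 14.37) that the authors had normalized between arrays. Partek is named in the submitters' processing notes, while its role and the background and normalization methods are not stated. The labels give lonafarnib as both mM and µM, and µM is printed.

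Of 35557 probesets, 21789 had 1 gene symbol, 1621 several and 12147 none listed. For the 999 genes with several probesets the one with the highest mean was used, which gave 19938 genes. Of the genes named from the other lists, Idi1, Fdft1, Rab5b and Rab11b had 2 probesets each. Their second probesets were not compared, as the mean of probesets was examined for the 10 prenylation genes alone. Each of the 34 columns matched a sample, and none was a duplicate. A fit with limma 3.58.1 in R 4.3.3 (lmFit, eBayes) estimated 12 group means with 22 residual degrees of freedom, with Benjamini-Hochberg adjustment over 19938 genes in each of 23 comparisons and a threshold of 0.05. The fit was tested on simulated data. The number of arrays limits the precision, and separate plates of a line, not animals, were the replicates.

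The 10 genes and all lists were chosen with earlier results of these data known. The text names all 10, of each other list up to 3 called genes of largest rise and fall per comparison with a start, and the 3 genes most like Fnta and Fntb. Other list genes that are named were chosen after their values were seen. A list of substrate genes and some other substrate genes that this rule would name are not reported here. Alternatives were quantile normalization, a filter on dim genes, the mean of probesets, arrays of the line alone, a replicate block, leaving out each array, and 3 added after seeing the data.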

Additional observations from a re-analysis of the deposited data

Results flagged for a closer look

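For 12 differences of change among the prenylation genes, a test of the difference itself passed the threshold in limma. Between drugs in 8093, at the midpoint, the change with lonafarnib minus that with nilotinib was 1.30 for Rabggtb, 0.72 for Zmpste24, 0.68 for Ggps1 and 0.47 for Rabggta, with nilotinib changes of −1.66, −0.63, −0.59 and −0.54 and lonafarnib changes of −0.37, 0.09, 0.10 and −0.06. The Rabggta difference was not called in 6 of 34 fits that each left out 1 array, nor after quantile normalization or on the arrays of 8093 alone. At the end the difference was 1.10 for Pggt1b, 0.97 for Rabggtb and −0.60 for Chm, with nilotinib changes of −0.20, −0.46 and 0.71 and lonafarnib changes of 0.90, 0.50 and 0.10. Part of the Pggt1b difference lay in the starts, with means of 8.33 (lonafarnib) and 8.92 (nilotinib) before drug. The Pggt1b means at the ends were 9.22 and 8.72. Without nilotinib end replicate 1 the Chm difference was −0.28 (adjusted p = 0.339, limma).

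Between lines with nilotinib, at the midpoint, the change in Bin-2 minus that in 8093 was 1.33 for Rabggtb, 0.52 for Zmpste24 and 0.45 for Rabggta, with Bin-2 changes of −0.34, −0.11 and −0.09. The Zmpste24 difference was not called in 22 of 34 fits that each left out 1 array (adjusted p up to 0.2, limma), and the Rabggta difference in 8. At the end it was −0.72 for Ggps1 and −0.79 for Chm, with Bin-2 changes of −0.26 and −0.09, and without 8093 nilotinib end replicate 1 these were −0.48 (adjusted p = 0.11) and −0.47 (adjusted p = 0.072). At that midpoint and end of 8093 the mast cell marker means were 9.48 and 11.40, against 4.41 and 7.16 in Bin-2, and their part in these differences was not tested.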

How the results depend on the processing

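Of 1570 gene results recomputed under other settings that kept all arrays of a comparison, 22 were no longer called, 48 became called and 1500 stayed on their side of the threshold. No called change reversed, and signs were not compared where neither setting called the gene. The counts of called genes changed by more than 1.5 times as follows. Quantile normalization gave 4 in place of 7 at the 8093 nilotinib midpoint, 0 in place of 1 at the 8093 lonafarnib midpoint, 1 in place of 2 at the Bin-2 lonafarnib midpoint, 3 in place of 6 between the Bin-2 lonafarnib midpoint and end, and 1 in place of 0 for the lonafarnib end difference between lines. The arrays of the line alone gave 0 in place of 1 at the 8093 lonafarnib midpoint and 1 in place of 2 at its end. Without dim genes, with the mean of probesets, with pooled starts, without the midpoints of narrow spread and without the later 8093 nilotinib arrays, 1 gene in place of 0 (Ggps1) differed between drugs at the Bin-2 end. Without dim genes 5 in place of 3 differed between lines at the nilotinib midpoint. Without dim genes, with pooled starts and in both fits with fewer groups, 1 in place of 0 (Rabggtb) differed between lines at the lonafarnib end. Pooled starts gave 6 in place of 2 at the Bin-2 lonafarnib midpoint, 6 in place of 3 between drugs at the 8093 end, 2 in place of 0 between drugs at the Bin-2 midpoint and 6 in place of 3 between lines at the nilotinib midpoint. Between the drugs of a line the pooled start cancels, so pooled counts between drugs compare levels at that time, not changes. The fit without the midpoints of narrow spread gave 1 in place of 0 (Fntb) at the Bin-2 nilotinib midpoint and end. The fit without the later 8093 nilotinib arrays gave 1 in place of 0 at the Bin-2 lonafarnib end (Chm) and between the 8093 starts (Pggt1b). The cause was not tested. Leaving out each of the 34 arrays gave 6 to 8 at the 8093 nilotinib midpoint, 2 to 7 at its end and 5 to 7 between them, 0 to 1, 1 to 2 and 1 to 3 in 8093 with lonafarnib, 1 to 4 and 0 to 0 at the Bin-2 lonafarnib midpoint and end and 5 to 8 between them, and 0 to 0 in Bin-2 with nilotinib. It gave 0 to 1 between the 8093 starts, 0 to 0 between the Bin-2 starts and 2 to 2 between lines at the start. Between drugs it gave 3 to 5 and 2 to 5 in 8093 and 0 to 0 and 0 to 1 in Bin-2, and between lines 1 to 4 and 0 to 3 with nilotinib and 0 to 0 and 0 to 1 with lonafarnib. The count of 2 at the 8093 nilotinib end came without end replicate 1. With the replicate number as a random block the intra-block correlation was −0.01 and all 230 gene results kept their call, so 7 were again called at the 8093 nilotinib midpoint. Among 32 pairs of arrays with the same number in a course, the median correlation of deviations from the group means was −0.01 and 2 were over 0.1. Among 64 pairs with different numbers the median was 0.003 and 10 were over 0.1. Deviations cancel within a group, so these pairs are not independent and cannot show that pairing was absent. The numbers were not taken to pair the samples. For 3 arrays of the 8093 ends the letter in the description differs from the title's number, which was used here, also for the block. By letter the median was 0.02 with 4 of 32 pairs over 0.1, against −0.01 and 8 of 64 for different letters. Leaving out an array of an 8093 end left a single array in that group. With 2 or 3 arrays per group, small changes could not be told from the spread between plates.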
